A study of Mus musculus with 12 samples.

Results

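The 10 genes described here encode proteins that neutrophils store in their granules or hold in their cytosol: S100a8, S100a9, Ltf, Ngp, Camp, Lcn2, Mpo, Elane, Retnlg and Mmp8. They were chosen by name, and the array carries 12 probes for them out of 39429 gene probes, with a pair of probes each for Camp and Mpo and 1 for each other gene. Transcript levels were measured in 6 samples of YFP+ macrophages and 6 samples of YFP- macrophages, sorted by flow cytometry from pancreas tumours that had been implanted into female C57/B6 mice aged 8-10 weeks. The labels give no genotype. The series design names wild-type, KPC and FLT3-CRE/LSL-YFP mice as sources of macrophages, and all samples analysed here come from tumours. In an FLT3-CRE/LSL-YFP reporter, Cre is made under the control of Flt3, a gene of early blood progenitors, and switches on YFP permanently in those cells and their progeny. YFP therefore marks a cell's history and not its present state, and a YFP- cell is one in which the reporter did not recombine or is not carried. Samples carry tumour numbers, given here as tumours 1 to 6 in each group. Each number stands on 1 YFP+ and 1 YFP- sample, and the labels do not say whether those came from the same tumour or animal, so the p-values rest on the scatter among these samples alone, and that scatter may be technical.

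Neutrophils build their granules in successive waves while they mature in the bone marrow. Azurophil granules are filled first, with myeloperoxidase and serine proteases such as elastase. Specific granules follow, with lactoferrin, cathelicidin and lipocalin, and gelatinase granules come last. The calcium-binding proteins S100A8 and S100A9 are not granule proteins: they form calprotectin, a heterodimer that is among the most abundant proteins of the neutrophil cytosol and binds zinc and manganese. Monocytes also carry calprotectin, and the amounts fall as monocytes turn into tissue macrophages. Granule gene messages are made mainly in marrow precursors, so a mature neutrophil in tissue holds far more of these proteins than of their transcripts.

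Signals are given as the log2 of the processed red (Cy5) signal minus the 75th percentile of the same array, so that 0 is that percentile and each unit is a doubling. A probe was counted as detected where the scanner software called it well above background. The 75th percentile itself was 3661 ± 265 intensity units on the YFP+ arrays and 2642 ± 413 on the YFP- arrays (SD, n = 6 each), a difference past the spread between arrays (exact permutation test, two-sided, p = 0.0043). Of all spots, 64.9% ± 0.919 on YFP+ arrays and 63.4% ± 1.18 on YFP- arrays were called well above background (SD, n = 6 each, exact permutation test, two-sided, p = 0.0303). That p was above 0.05 without YFP+ tumour 1, 2, 5 or 6 or YFP- tumour 2 or 3, and reached 0.0736. Every one of the 3 slides holds 2 arrays of either group. All 12 macrophage markers tested, among them Csf1r, Adgre1 and C1qa, were above the 75th percentile on every array of both groups. Of 20370 genes and features tested with limma, 356 (1.75%) passed an adjusted p of 0.05, 288 (1.41%) of them lower and 68 (0.334%) higher in YFP+ macrophages. Centring each array on its median in place of the 75th percentile moved the median difference of all features to 0.18 against −0.03, and gave 230 lower and 116 higher calls.

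None of the 8 genes tested passed that threshold in the fit without a block, against the 1.75% of all features that did. Ngp and Elane were detected on too few arrays to be tested. The groups overlapped at all 12 probes, whereas they did not overlap for 1.89% of all features. Of the 8 genes, 6 had a lower mean in YFP+ macrophages, where 52.8% of all features did. The median difference of the 8 was −1.63 on the log2 scale, against −0.03 over all features. Over all 10 genes, fitted without the filter on dim probes, it was −1.12. At an unadjusted p under 0.05, 5 of the 8 were lower in YFP+ macrophages, against 7.51% of all features. Those 5 were S100a9, S100a8, Ltf, Mpo and Camp. That count was 3 with the mean of a gene's probes, where Mpo and Camp dropped out, and 2 (Ltf and Mpo) with the array's brightness as a covariate. With detection on all 12 arrays required it was also 2, S100a9 and Ltf. S100a8, Mpo, Camp and Retnlg were not tested in that setting, since they fail its filter. With a different background correction (normexp), 3 of the 5 passed the adjusted threshold, against 2.66% of all features (541), at smaller differences: −1.48 for S100a9, −1.25 for Ltf and −2.18 for Mpo. With tumour number as a block, S100a9 passed (adjusted p = 0.037 by limma), against 1.45% of all features (296). With the array's brightness as a covariate, which left 0.054% of all features called (11), none of the 8 passed: S100a9 differed by −1.51 (adjusted p = 0.456 by limma), Ltf by −2.89 (adjusted p = 0.183), S100a8 by −2.57 (adjusted p = 0.450), Mpo by −4.01 (adjusted p = 0.406) and Camp by −1.23 (adjusted p = 0.702). The 75th percentile ran from 3264 to 3931 on YFP+ arrays and from 2121 to 3332 on YFP- arrays. The fit with brightness can therefore hardly separate brightness from group. With slide as a block none of the 8 passed (556 of all features, 2.73%, did). In these sorted samples, fewer cells of a type and less RNA per cell cannot be told apart.

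**Figure D1:**
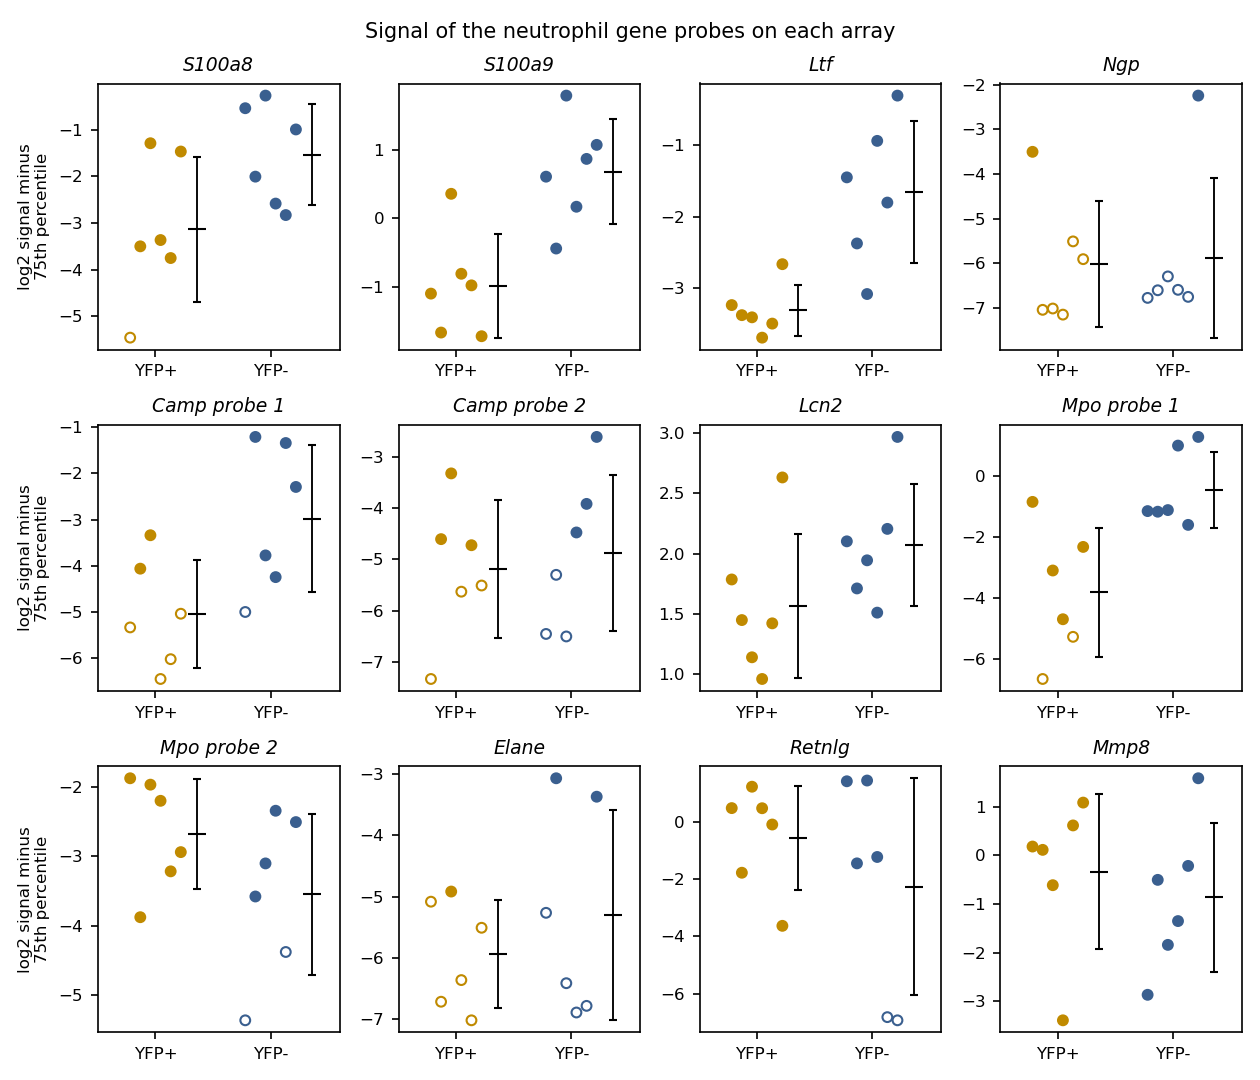
Signal of each of the 12 probes on each array, as log2 processed signal minus the array's 75th percentile, with YFP+ arrays in yellow on the left and YFP- arrays in blue on the right of each panel. Filled points are arrays where the probe was well above background and open points are arrays where it was not, and the bar gives the mean and SD of 6 arrays. Groups overlap in every panel, and for S100a9, Ltf and Mpo probe 1 only 1 YFP+ array reaches into the YFP- range.

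The calprotectin pair differed in the same direction. S100a9 (mm9, chr3:90496573-90496632) was detected on all 12 arrays. Its lowest, median and highest values were −1.73, −1.04 and 0.36 in YFP+ macrophages, against −0.44, 0.74 and 1.80 in YFP- macrophages. The YFP+ array of tumour 3 was the only one of its group above its array's 75th percentile, and the YFP- array of tumour 2 was the only one of its group below it. S100a9 averaged −0.99 ± 0.76 in YFP+ macrophages and 0.68 ± 0.77 in YFP- macrophages (SD, n = 6 each). The difference was −1.67 on the log2 scale, or 3.19-fold lower (SE 0.420, 95% interval −2.59 to −0.76), with an adjusted p of 0.076 by limma, and the YFP+ value was lower for 6 of 6 tumour numbers. With tumour number as a block the adjusted p was 0.037. When 1 array was left out the adjusted p ran from 0.028 to 0.156: it was 0.028 without the YFP+ array of tumour 3 and 0.046 without the YFP- array of tumour 2. Within slides 1, 2 and 3 the difference was −3.15, −1.26 and −0.62.

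S100a8 (mm9, chr3:90473778-90473837) encodes the partner subunit from a neighbouring locus. It ranged more widely, with a lowest, median and highest value of −5.46, −3.43 and −1.29 in YFP+ macrophages, against −2.83, −1.50 and −0.27 in YFP- macrophages. It was not above background on the YFP+ array of tumour 1, which held the lowest value of all 12, while the YFP- arrays of tumours 1, 3 and 6 held the 3 highest. The mean was −3.14 ± 1.56 in YFP+ macrophages and −1.54 ± 1.09 in YFP- macrophages (SD, n = 6 each). The difference of −1.60 (SE 0.712, 95% interval −3.15 to −0.06) did not pass the threshold over all features (adjusted p = 0.419 by limma). It was −1.85, −2.19 and −0.77 within slides 1, 2 and 3.

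The S100a8 and S100a9 probes are shown because the calprotectin result is read from 1 probe for each gene. The S100a8 probe is printed whole and the S100a9 probe by its first 30 bases, both 5′ to 3′ as in the array design, with no capitals.
S100a8: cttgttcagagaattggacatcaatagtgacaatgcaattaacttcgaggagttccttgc
S100a9: gtctaaagggaatggcttactcaatggcct

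The calprotectin probes followed each other only loosely within groups. Taken as deviations from the group means over 12 arrays, S100a8 and S100a9 had a Pearson r of 0.40 (permutation p = 0.222, adjusted p = 0.444 over 4 relations) and a Spearman rho of 0.31 (permutation p = 0.337, adjusted p = 0.673). Without the 2 arrays farthest from the median of S100a8 the r was 0.24. The highest YFP+ array of both genes was that of tumour 3, and so was the highest YFP- array.

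Among the specific granule genes Ltf, Camp, Ngp and Lcn2, Ltf, which encodes the iron-binding protein lactoferrin, gave the tightest YFP+ values. Ltf (mm9, chr9:110942873-110942932) was detected on all 12 arrays, with a lowest, median and highest value of −3.69, −3.39 and −2.66 in YFP+ macrophages, against −3.08, −1.63 and −0.31 in YFP- macrophages. The only overlap came from the YFP- array of tumour 3 and the YFP+ array of tumour 6. The mean was −3.31 ± 0.351 in YFP+ macrophages and −1.66 ± 0.994 in YFP- macrophages (SD, n = 6 each). The difference was −1.65 (SE 0.409, 95% interval −2.54 to −0.76, adjusted p = 0.072 by limma), with the YFP+ value lower for 6 of 6 tumour numbers. Without the YFP- array of tumour 3 the adjusted p was 0.021, and it reached 0.151 when another array was left out. The difference was −1.33, −1.28 and −2.35 within slides 1, 2 and 3.

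Lcn2 encodes lipocalin-2, a protein of specific granules that captures bacterial siderophores and that epithelial cells and macrophages also make. It was above the 75th percentile on all 12 arrays. The lowest, median and highest values of the Lcn2 probe (mm9, chr2:32240199-32240258) were 0.96, 1.44 and 2.63 in YFP+ macrophages, against 1.51, 2.02 and 2.97 in YFP- macrophages. The difference of −0.51 (SE 0.316, 95% interval −1.20 to 0.18) did not pass the threshold (adjusted p = 0.618 by limma), although the YFP+ value was lower for 6 of 6 tumour numbers. Within slides 1, 2 and 3 the Lcn2 difference was −0.42, −0.35 and −0.76. In both groups the array of tumour 6 was the highest, as it was for Ltf. The deviations of Ltf and Lcn2 from their group means had a Pearson r of 0.55 (permutation p = 0.051, adjusted p = 0.204) and a Spearman rho of 0.48 (permutation p = 0.114, adjusted p = 0.455), with an r of 0.45 without the 2 arrays farthest from the median of Ltf.

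Camp encodes cathelicidin, the precursor of an antimicrobial peptide of specific granules, and its probes gave unlike results. Camp probe 1, which the array annotation does not place on the genome, had a lowest, median and highest value of −6.45, −5.19 and −3.34 in YFP+ macrophages, against −5.00, −3.04 and −1.21 in YFP- macrophages. It was well above background on 2 of 6 YFP+ arrays and 5 of 6 YFP- arrays. The difference was −2.06 (SE 0.738, 95% interval −3.67 to −0.46, adjusted p = 0.269 by limma), and it was −1.52, −4.40 and −0.27 within slides 1, 2 and 3. Camp probe 2 (mm9, chr9:109749911-109749970) had a lowest, median and highest value of −7.33, −5.12 and −3.33 in YFP+ macrophages, against −6.50, −4.89 and −2.62 in YFP- macrophages, with 3 arrays of each group above background. Its difference was −0.31 (SE 0.756, 95% interval −1.95 to 1.33, adjusted p = 0.940 by limma). The mean of both Camp probes differed by −1.19 (adjusted p = 0.555 by limma), so the size of the Camp difference depends on the probe. Both readings are dim, and values on arrays where a probe was not above background have no firm order.

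The Camp probes are shown side by side because they read nearly the same stretch yet gave unlike differences. They overlap by 50 bases, of which 48 are identical. Counted from the start of the overlap, probe 2 to probe 1, the differences are A6G and T10C. The first 30 bases of the overlap follow, with the differing bases in capitals.
Camp probe 1: cagccGgagCagtaggcctgccttggcctg
Camp probe 2: cagccAgagTagtaggcctgccttggcctg

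Ngp encodes neutrophilic granule protein, a cystatin-like protein of specific granules made by marrow precursors. It was near the limit of the assay, since its probe, which the annotation does not place on the genome, was well above background on 1 of 6 YFP+ arrays and 1 of 6 YFP- arrays. The lowest, median and highest values were −7.15, −6.46 and −3.50 in YFP+ macrophages, against −6.78, −6.60 and −2.24 in YFP- macrophages. The detected arrays were those of YFP+ tumour 1 and YFP- tumour 6. Without the filter on dim probes the Ngp difference was −0.14 (SE 0.860, adjusted p = 0.958 by limma).

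Mmp8 encodes neutrophil collagenase, a protease stored in specific granules. Mmp8 (mm9, chr9:7568238-7568297) was detected on all 12 arrays, with a lowest, median and highest value of −3.39, 0.15 and 1.08 in YFP+ macrophages, against −2.87, −0.93 and 1.58 in YFP- macrophages. The YFP+ array of tumour 4 and the YFP- array of tumour 1 were the lowest, and both arrays of tumour 6 were the highest of their groups. The difference of 0.53 (SE 0.826, 95% interval −1.26 to 2.33, adjusted p = 0.888 by limma) lay within the spread between arrays, and was 0.73, 0.76 and 0.11 within slides 1, 2 and 3.

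The probe sequences of Ltf and Mmp8 are printed whole, 5′ to 3′, as examples of granule genes detected on every array, as Lcn2 also was.
Ltf: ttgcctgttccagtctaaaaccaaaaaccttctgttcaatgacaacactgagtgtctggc
Mmp8: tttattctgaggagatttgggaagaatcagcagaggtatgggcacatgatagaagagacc

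The azurophil gene Mpo, which encodes myeloperoxidase, the haem enzyme that makes hypochlorous acid, had the largest difference of the 8 tested genes at the probe used in the fit and a difference of the opposite sign at the other. Mpo probe 1 (mm9, chr11:87617840-87617899) had a lowest, median and highest value of −6.66, −3.90 and −0.84 in YFP+ macrophages, against −1.60, −1.13 and 1.30 in YFP- macrophages. It was detected on 4 of 6 YFP+ arrays and 6 of 6 YFP- arrays, and only the YFP+ array of tumour 1 reached into the YFP- range. The mean was −3.82 ± 2.13 in YFP+ macrophages and −0.45 ± 1.26 in YFP- macrophages (SD, n = 6 each). The difference was −3.37, or 10.3-fold lower (SE 0.919, 95% interval −5.36 to −1.37), with an adjusted p of 0.109 by limma. Since 2 of the YFP+ arrays were not above background, that size is uncertain, and it was −2.18 with normexp (adjusted p = 0.042). Without the YFP+ array of tumour 1 the adjusted p was 0.036, and it reached 0.228 when another array was left out. Within slides 1, 2 and 3 the difference was −4.59, −1.68 and −3.83.

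Mpo probe 2 (mm9, chr11:87615121-87615180) starts 2719 bases nearer the start of the gene. The array annotation assigns it to another transcript record than probe 1, and whether the probes read different transcripts was not tested. Its lowest, median and highest values were −3.87, −2.57 and −1.87 in YFP+ macrophages, against −5.36, −3.34 and −2.34 in YFP- macrophages. It was detected on 6 of 6 YFP+ arrays and 4 of 6 YFP- arrays. The difference was 0.86 (SE 0.534, 95% interval −0.30 to 2.03, adjusted p = 0.623 by limma). The mean of both probes differed by −1.25 (adjusted p = 0.539 by limma), so the Mpo reading holds for probe 1 alone. The last 30 bases of probe 1 carry AATAAA, the letters of the usual polyadenylation signal, shown in capitals. Probe 2 is printed whole.
Mpo probe 1: tatttgtacctgaggttcacactAATAAAa
Mpo probe 2: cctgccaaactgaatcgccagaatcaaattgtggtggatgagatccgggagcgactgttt

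Elane, which encodes neutrophil elastase, was near background in both groups. Its probe (mm9, chr10:79350902-79350961) was detected on 1 of 6 YFP+ arrays and 2 of 6 YFP- arrays. The lowest, median and highest values were −7.02, −5.93 and −4.92 in YFP+ macrophages, against −6.89, −5.84 and −3.07 in YFP- macrophages. Without the filter on dim probes the Elane difference was −0.63 (SE 0.729, adjusted p = 0.704 by limma).

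Retnlg, a resistin-like secreted protein of mouse neutrophils, ran against the calprotectin genes in sign. Its probe (mm9, chr16:48874468-48874527) had a lowest, median and highest value of −3.63, 0.19 and 1.22 in YFP+ macrophages, against −6.93, −1.34 and 1.44 in YFP- macrophages. It was detected on 6 of 6 YFP+ arrays and 4 of 6 YFP- arrays, and the YFP- arrays of tumours 5 and 6 were below background. The mean was −0.56 ± 1.82 in YFP+ macrophages and −2.26 ± 3.78 in YFP- macrophages (SD, n = 6 each), and the difference of 1.71 (SE 1.55, 95% interval −1.66 to 5.07, adjusted p = 0.776 by limma) was within that spread. Within slides 1, 2 and 3 the Retnlg difference was 0.04, 4.33 and 0.76. It fell to 0.80 without the YFP- array of tumour 5 and to 0.77 without that of tumour 6, so its size rests much on these undetected arrays. Both arrays of tumour 6 were the lowest of their groups for Retnlg, and both were the highest for Ltf, Lcn2 and Mmp8.

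**Figure D2:**
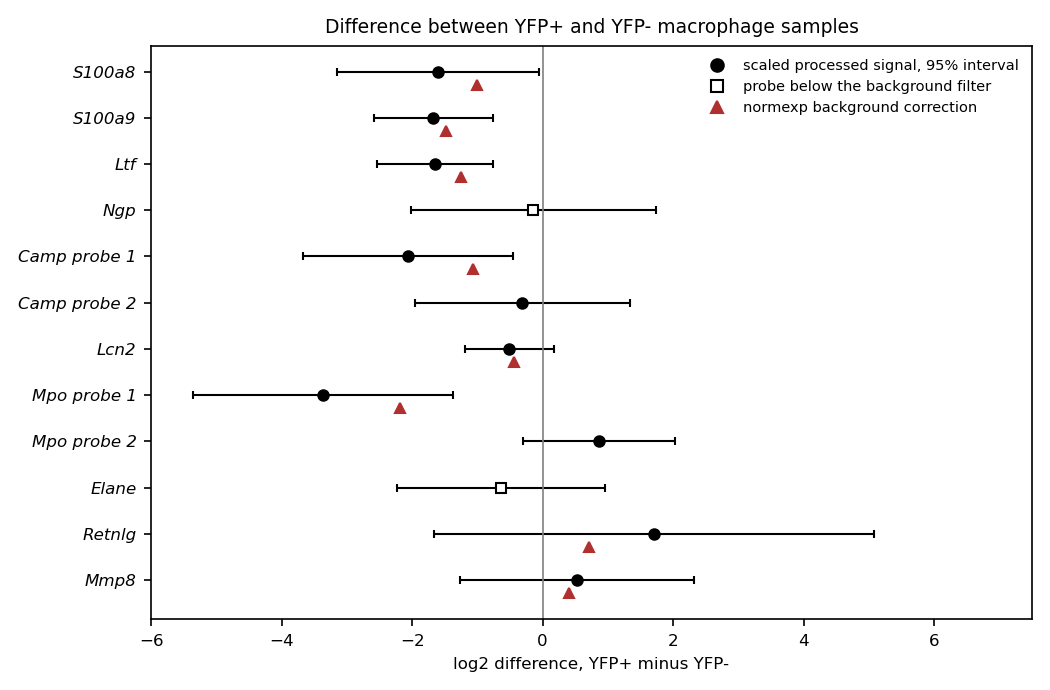
Difference in log2 signal, YFP+ minus YFP-, for each probe, with its 95% interval from limma; open squares are probes below the background filter, fitted without it, and triangles give the difference after normexp background correction. S100a9, Ltf and Mpo probe 1 lie at −1.67, −1.65 and −3.37, while Mpo probe 2, Retnlg and Mmp8 lie above 0 with intervals that cross it.

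No single array was high for all of these genes. Of the 12 probes, the YFP+ array of tumour 3 held the highest value of its group at 6 (S100a8, S100a9, both Camp probes, Elane and Retnlg), while the YFP+ array of tumour 4 held the lowest at 5. The YFP- array of tumour 6 held the highest value of its group at 6 (Ltf, Ngp, Camp probe 2, Lcn2, Mpo probe 1 and Mmp8). Between 7 and 11 of the 12 probes were detected on an array. S100a9 and Ltf, the genes with the smallest p among the 8, showed no relation past the threshold within groups (Pearson r of −0.23, permutation p = 0.527, adjusted p = 0.703; Spearman rho of −0.18, permutation p = 0.604, adjusted p = 0.806). That r was 0.30 without the 2 arrays farthest from the median of S100a9, so its sign rests on them.

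**Figure D3:**
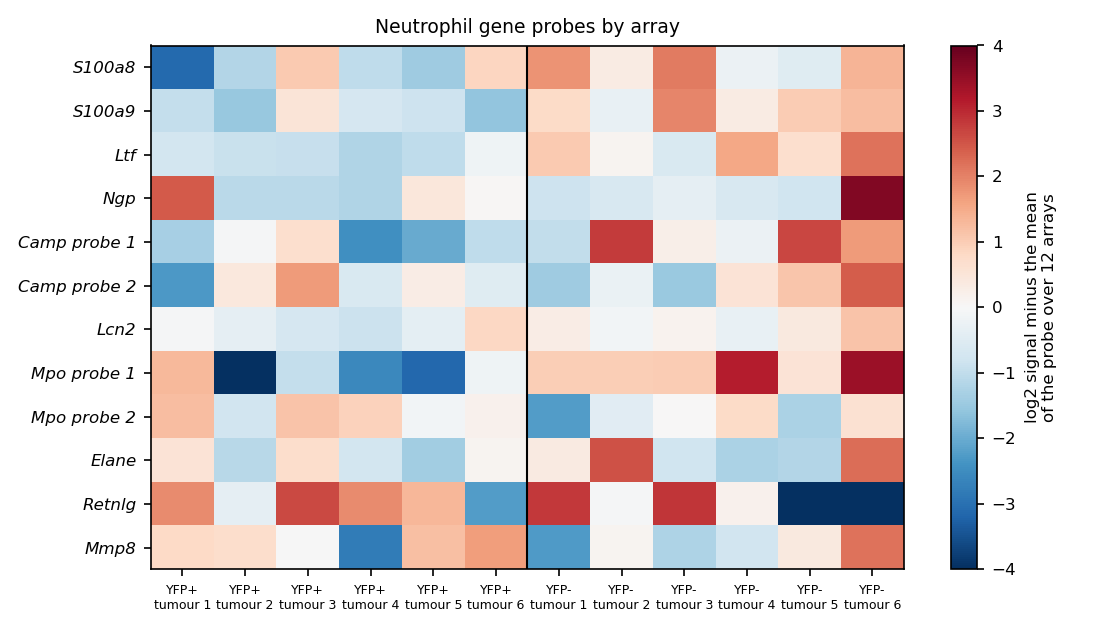
Log2 signal of each probe on each array minus that probe's mean over 12 arrays, with YFP+ arrays left of the line and YFP- arrays right of it; red is above the probe's mean, blue below it, and the scale ends at 4 in either direction. Rows for S100a9, Ltf and Mpo probe 1 are mostly blue on the left and red on the right, and the reddest column differs between rows.

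Markers of several other cell types were lower in YFP+ macrophages beside these genes. Summed over each marker list, in multiples of the array's 75th percentile, the epithelial level was 4.92 to 10.6 on YFP+ arrays, against 15.03 to 39.1 on YFP- arrays. Of its 9 tested markers, 9 had a lower mean in YFP+ macrophages and 4 were called lower, where 1.41% of all features were called lower. The fibroblast sum was 12.2 to 33.5 on YFP+ arrays, against 49.2 to 129 on YFP- arrays, with 6 of 9 markers called lower and 9 lower in mean. The acinar sum was 4.09 to 27.6 on YFP+ arrays, against 12.3 to 110.5 on YFP- arrays, with 1 of 8 markers called lower and 8 lower in mean. The red cell sum was 3.83 to 27.1 on YFP+ arrays, against 28.5 to 92.5 on YFP- arrays, with 3 of 5 markers called lower and 5 lower in mean. Markers of mast cells, basophils and eosinophils summed to 1.53 to 4.23 on YFP+ arrays, against 5.68 to 21.0 on YFP- arrays, with 3 of 5 called lower and 4 lower in mean. Monocyte markers summed to 42.9 to 63.9 on YFP+ arrays, against 57.3 to 80.6 on YFP- arrays, with 0 of 10 called by limma (3 at an unadjusted p under 0.05: Plac8 and Ly6c1 lower, Vcan higher in YFP+ macrophages). Unlike the sum, most monocyte markers were not lower: 4 had a lower and 6 a higher mean in YFP+ macrophages, with a median difference of 0.26. None of the tested markers of B and plasma cells (6), T and NK cells (5) or dendritic cells (6) was called, with 4, 0 and 1 at an unadjusted p under 0.05. Of these, the B and plasma cell markers Jchain, Mzb1 and Cd79b and the dendritic cell marker Batf3 were higher in YFP+ macrophages, and Sdc1 was lower. The part that other cells have in the differences of S100a8, S100a9, Ltf and Mpo was not tested.

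The neutrophil marker list shares 6 of its 10 tested genes with those above. It summed to 31.3 to 47.5 on YFP+ arrays, against 27.4 to 58.7 on YFP- arrays, with 0 of 10 called by limma (5 at an unadjusted p under 0.05), 5 lower and 5 higher, and a median difference of −0.11. Most of that sum is Csf3r, which made up 69.3% to 89.0% of it on YFP+ arrays and 73.6% to 91.7% on YFP- arrays. Without Csf3r the sum was 4.40 to 10.1 on YFP+ arrays and 4.50 to 9.52 on YFP- arrays. Ly6g, the surface protein used to define mouse neutrophils, was not analysed here. Csf3r, the receptor for the granulocyte growth factor G-CSF, ranged over 4.51 to 5.39 in YFP+ macrophages, against 4.34 to 5.65 in YFP- macrophages (difference −0.30, adjusted p = 0.769 by limma). Deviations of S100a9 had no relation past the threshold with those of Csf3r (Pearson r of −0.03, permutation p = 0.929, adjusted p = 0.929; Spearman rho of −0.02, permutation p = 0.958, adjusted p = 0.958), and the r was 0.08 without the 2 arrays farthest from the median of S100a9.

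The other neutrophil genes were examined by granule class and role. Some of them read about as high as macrophage markers in both groups. Itgam averaged 5.45 in YFP+ and 5.97 in YFP- macrophages, and Lyz2 4.32 and 4.36, where Csf1r averaged 4.92 and 5.08. Which cells these transcripts came from was not tested, so the list medians below are not those of neutrophil RNA alone. Over all features, 11.2% had an unadjusted p under 0.05 and 52.8% had a lower mean in YFP+ macrophages. In the azurophil list, 7 of 9 genes were tested, 0 were called by limma (2, Mpo and Prss57, at an unadjusted p under 0.05), and 6 of the 7 had a lower mean in YFP+ macrophages, with a median difference of −1.06. Bpi, which encodes a bactericidal protein, was never above background. Prss57, a serine protease of azurophil granules, had a difference of −3.002 (adjusted p = 0.186 by limma) but was detected on 2 of 6 YFP+ and 5 of 6 YFP- arrays, so its size is uncertain. Serpinb1a, an inhibitor of elastase and proteinase 3, had a difference of −1.12 (adjusted p = 0.466) and Prtn3, which encodes proteinase 3, one of 1.15 (adjusted p = 0.567). In the specific and gelatinase list, 14 of 19 were tested and 0 were called by limma (3, Ltf, Pglyrp1 and Camp, at an unadjusted p under 0.05), with 5 lower, 9 higher and a median of 0.13. Its Pglyrp1, a peptidoglycan-binding protein, had a lowest, median and highest value of −2.04, −1.004 and 0.13 in YFP+ macrophages, against 0.02, 0.50 and 2.02 in YFP- macrophages (difference −1.59, adjusted p = 0.130). Mmp9, which encodes gelatinase B, differed by 0.58 (adjusted p = 0.717).

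Neutrophil cytosol genes were split evenly, with 4 lower and 4 higher of 8 tested and a median of −0.03, and 0 were called by limma (S100a8 and S100a9 at an unadjusted p under 0.05). Annexin gene Anxa1 differed by −0.34 (adjusted p = 0.612 by limma) and Gca, which encodes grancalcin and was detected on 4 of 6 YFP+ and 3 of 6 YFP- arrays, by 1.09 (adjusted p = 0.630). Of the surface and signalling genes of mature neutrophils, 0 of 16 tested were called by limma (1, Cxcr2, at an unadjusted p under 0.05), 9 were lower and 7 higher, and the median was −0.07. Cxcr2, the receptor for neutrophil-attracting chemokines, had a lowest, median and highest value of −1.63, −1.23 and −0.25 in YFP+ macrophages, against −2.63, −2.32 and −1.15 in YFP- macrophages (difference 1.02, adjusted p = 0.150). Trem1, an amplifying receptor of myeloid cells, differed by −0.50 (adjusted p = 0.543) and Selplg, which encodes the P-selectin ligand, by 0.28 (adjusted p = 0.546).

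Regulators of granulocyte progenitors were 0 of 6 called by limma (1, Klf5, at an unadjusted p under 0.05), with 2 lower, 4 higher and a median of 0.14. Klf5, a transcription factor also made by epithelium, had a lowest, median and highest value of −4.51, −1.90 and −1.14 in YFP+ macrophages, against −1.14, −0.19 and 0.40 in YFP- macrophages (difference −1.99, adjusted p = 0.093 by limma). Cebpe, the regulator of specific granule genes, differed by 0.66 (adjusted p = 0.621), Cebpa by 0.35 (adjusted p = 0.695) and Spi1, which encodes PU.1, by 0.26 (adjusted p = 0.679). Among 17 tested genes for receptors and inhibitors that act on calprotectin and granule proteins, 0 were called by limma (2, Timp1 and Serpina3n, at an unadjusted p under 0.05), 9 were lower and 8 higher, and the median was −0.10. Timp1, an inhibitor of metalloproteinases, differed by −0.99 (adjusted p = 0.126), Serpina3n, a serine protease inhibitor detected on 2 of 6 YFP+ and 5 of 6 YFP- arrays, by −3.30 (adjusted p = 0.311) and Slc22a17, a receptor for lipocalin-2, by −0.69 (adjusted p = 0.549).

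In the list of neutrophil attractants and their makers and receptors, 2 of 11 tested genes were called, 1 lower and 1 higher, with a median of 0.04, where 1.41% of all features were called lower and 0.334% higher. The chemokine gene Cxcl5 fell in YFP+ macrophages, with a lowest, median and highest value of −6.27, −5.19 and −3.17, against −3.85, −1.49 and 0.03 in YFP- macrophages. Its difference was −3.30, or 9.84-fold lower (SE 0.675, adjusted p = 0.0276 by limma), lower for 6 of 6 tumour numbers. It was above background on 3 of 6 YFP+ arrays and 6 of 6 YFP- arrays, which leaves the YFP+ level and the fold uncertain, and with normexp the Cxcl5 difference was −1.90. Ltb4r1, the receptor for the neutrophil attractant leukotriene B4, rose in YFP+ macrophages, with a lowest, median and highest value of −1.67, −1.20 and −0.68, against −3.32, −2.73 and −1.69 in YFP- macrophages. Its difference was 1.44, or 2.70-fold higher (SE 0.302, adjusted p = 0.0318 by limma), higher for 6 of 6 tumour numbers, and 0.89 with normexp. Lta4h, the enzyme that makes leukotriene B4, differed by 0.75 (adjusted p = 0.586), Cxcl1 by −0.56 (adjusted p = 0.612), Ppbp by 0.36 (adjusted p = 0.857) and C3 by −0.23 (adjusted p = 0.859). Within slides 1, 2 and 3 the difference was −1.72, −2.83 and −5.35 for Cxcl5 and 1.68, 1.23 and 1.39 for Ltb4r1. Neither call held in every setting. With the array's brightness as a covariate, which can hardly be separated from group here, the difference of Cxcl5 was −3.25 (adjusted p = 0.385 by limma) and that of Ltb4r1 was 0.63 (adjusted p = 0.580). Each was also lost in 8 of the 12 fits that left out 1 array: Cxcl5 without YFP+ tumour 3, 4, 5 or 6 or YFP- tumour 1, 2, 3 or 5 (adjusted p up to 0.068 over the 12 fits), and Ltb4r1 without YFP+ tumour 1, 2, 4 or 6 or YFP- tumour 3, 4, 5 or 6 (adjusted p up to 0.076).

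**Figure D4:**
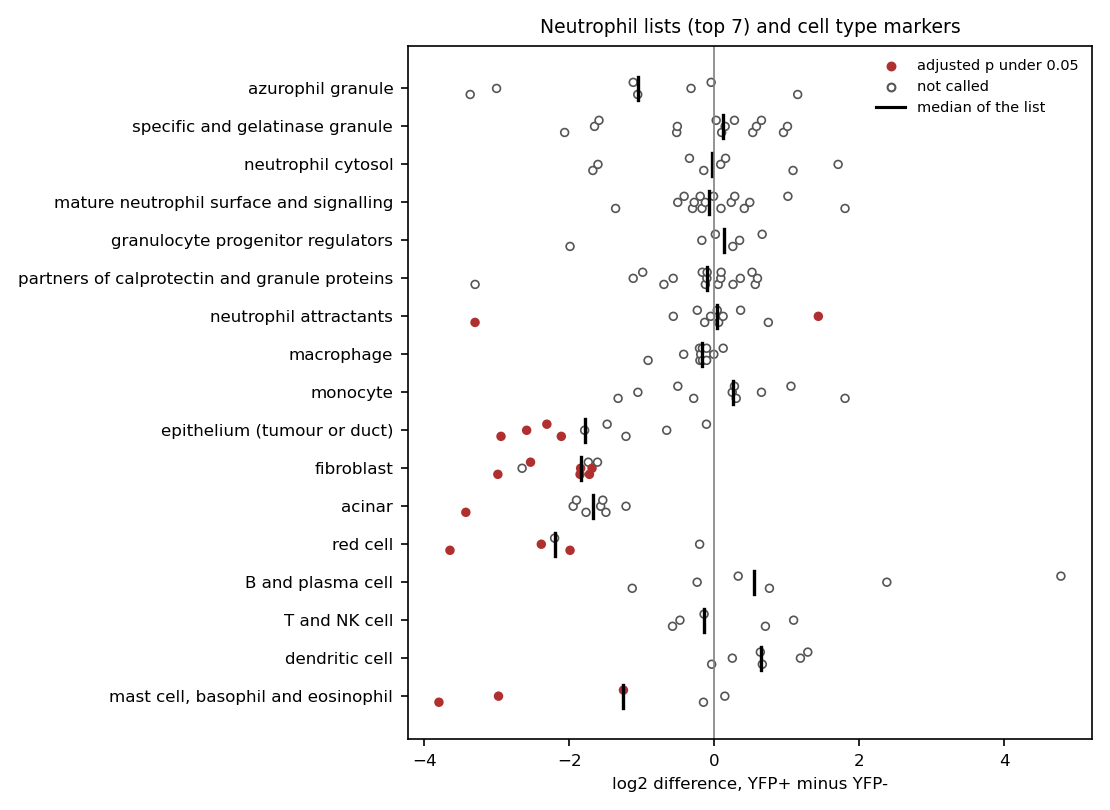
Difference in log2 signal, YFP+ minus YFP-, of each tested gene in 7 neutrophil lists (upper rows) and in the cell type marker lists (lower rows), with red points for an adjusted p under 0.05 and a bar at each list's median. Red points among the neutrophil lists are Cxcl5 at −3.30 and Ltb4r1 at 1.44, and the medians of the fibroblast, epithelial, acinar and red cell lists lie between −2.20 and −1.67.

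The genes whose deviations over 12 arrays were most like those of S100a9 were Snora47 (r = 0.81), Tmem25 (0.79), Gtpbp3 (0.79), Cldn11 (0.79) and Gabbr2 (0.79). For Ltf they were Tmem154 (r = 0.94), Scyl2 (0.93), Klf11 (0.92), Tor1aip1 (0.91) and Csta2 (0.90). These are the highest r among tested genes with a gene symbol, none is among the neutrophil genes above, and the arrays share their slides and scaling.

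The promoters of all 10 genes were read from RefSeq sequence (GRCm38.p6), whatever the genes' differences, and those of S100a8, S100a9 and Ltf are shown as examples. Within the 250 bases before the start, TTNNGCAA or its reverse TTGCNNAA, letters that C/EBP factors bind, occurred in 6 of 10 genes (S100a9, Ltf, Lcn2, Ngp, Mmp8 and Retnlg), against 9.56% of 32851 promoters. GAGGAAGT or its reverse ACTTCCTC, letters that PU.1 binds, occurred in 4 of 10 (S100a8, Mpo, Elane and Mmp8), against 2.44% of promoters, and TATAAA on the sense strand in S100a8, against 7.59%. The windows were searched on both strands except for TATAAA, and the letters of the motifs do not overlap here. The matches are letters in a window and say nothing of binding. Shown are the 250 bases before the start of S100a8 (chr3:90668821-90669070, plus strand), S100a9 (chr3:90695722-90695971, minus strand) and Ltf (chr9:111019042-111019291, plus strand), each 5′ to 3′ on the gene's strand with matches in capitals. The match nearest the start is 30 bases before it in S100a8, 236 in S100a9 and 75 in Ltf.
S100a8 promoter: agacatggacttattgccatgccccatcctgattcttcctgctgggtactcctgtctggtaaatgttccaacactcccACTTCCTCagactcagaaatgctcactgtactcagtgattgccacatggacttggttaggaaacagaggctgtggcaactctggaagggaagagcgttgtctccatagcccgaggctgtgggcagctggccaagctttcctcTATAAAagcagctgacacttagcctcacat
S100a9 promoter: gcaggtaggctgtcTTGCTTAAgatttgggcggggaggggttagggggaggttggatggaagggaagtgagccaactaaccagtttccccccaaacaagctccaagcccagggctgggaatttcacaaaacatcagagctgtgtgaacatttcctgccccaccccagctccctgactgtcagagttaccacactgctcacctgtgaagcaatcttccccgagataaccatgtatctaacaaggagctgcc
Ltf promoter: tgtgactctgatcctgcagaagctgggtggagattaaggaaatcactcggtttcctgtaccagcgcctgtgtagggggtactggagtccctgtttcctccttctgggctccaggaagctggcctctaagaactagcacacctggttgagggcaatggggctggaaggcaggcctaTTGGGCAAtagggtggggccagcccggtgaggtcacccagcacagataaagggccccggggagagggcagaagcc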

How the data were processed

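Transcript levels were measured on 12 Agilent one-colour arrays (4x44K design), 6 of YFP+ and 6 of YFP- macrophages, grouped by their labels. The labels' protocols describe amplified, Cy5-labelled cDNA. The deposited intensity values come from Agilent Feature Extraction 11.5.1.1, per the file headers and the submitters' processing notes. That software subtracted the background and corrected for position on the array before giving the processed signal. The authors also deposited a value table, on a log2 scale per its values, with a median of 8.834 in all 12 columns and a rank correlation with the scanner values of at least 0.9999. Its order of probes within an array thus matches the scanner signals, and it served as an alternative. Its 75th percentile was 11.59 in all 12 columns. The S100a9 difference was −1.65 both with that table and with quantile normalization, so these alternatives are not separate checks.

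Control spots (1377) and flagged spots (138 to 210 per array) were left out, probes printed 10 times (399) were averaged, and 35 probes with no value on some array were dropped. No spot was saturated. Log2 signals were scaled to each array's 75th percentile. A probe was kept where at least 6 of 12 arrays called it well above background (25434), and each gene was read from its kept probe of highest mean (20370 genes and features). RefSeq accessions updated 1403 names. Positions are those of the array annotation (mm9), and promoters come from RefSeq (GRCm38.p6). All 10 genes matched a promoter there.

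The YFP+ minus YFP- difference was fitted in R 4.3.3 with limma 3.58.1 (group as the only factor), with Benjamini-Hochberg adjustment over all features and a threshold of 0.05. The fit was tested on simulated data. Array measures were compared by exact permutation, and relations by 100000 permutations within groups, of deviations from group means. Of 6 relations planned, both that involve Ngp were not run, since it is below the filter. Tables and figures were made with matplotlib 3.10.9, scipy 1.17.1, numpy 2.4.6 and pandas 2.3.3 in Python 3.11.15.

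The genes and lists were chosen with earlier results of these data known. All 10 genes were named whatever their values, and from each further list the called genes and up to 4 others with the smallest p, besides Csf3r, which a planned relation names, and Mmp9, chosen after its values were seen; 1 gene that this rule takes is not reported here. The 5 genes most like S100a9 and Ltf were taken among those with a gene symbol. Alternatives covered the background correction, the normalization, the filter, the probe rule, slide and tumour number as blocks, array brightness, and leaving out each slide and array. The number of arrays limits the precision.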

Additional observations from a re-analysis of the deposited data

Results flagged for a closer look

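At 1 of 24 probe groups and 4 groups of array measures, an array stood apart from the other 5 by Dixon's 95% criterion for its gap as a share of the group's range. It was the highest YFP- value of Ngp, −2.24 on the array of tumour 6, where the nearest other YFP- array was at −6.29 and the gap was 0.894 of the range. The probe was not above background on the other 5 YFP- arrays, so their order is not firm. Chance flags about 1 in 20 such groups. The same array also held the highest YFP- value for Ltf, Lcn2, Mpo probe 1, Camp probe 2 and Mmp8, and the lowest for Retnlg.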

How the results depend on the processing

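At the probe used in the fit, no difference of the 8 tested genes changed sign under any alternative run, although Mpo probe 2 was at 0.86. Ngp and Elane were fitted only without the filter, and their signs differ between slides. The number of the 8 genes called was 0 as reported, 3 with normexp background correction (S100a9, adjusted p = 0.041; Mpo, 0.042; Ltf, 0.021), 1 with an intensity trend and robust variances (S100a9, adjusted p = 0.040, beside 2.14% of all features), and 0 to 1 when 1 array was left out. Over all alternatives other than leaving out 1 array, the adjusted p ran from 0.037 to 0.869 for S100a9, from 0.021 to 0.748 for Ltf and from 0.042 to 0.843 for Mpo. The upper ends of these ranges came from slide 3 alone for S100a9, slide 1 alone for Ltf and slide 2 alone for Mpo. The median difference of the 8 genes was −1.63 as reported, −1.04 with normexp, −1.08 over the 4 genes detected on all 12 arrays, −0.69 on slide 3 alone, and −1.79 to −1.40 when 1 array was left out. Counts of all calls were 356 as reported, 541 with normexp, 556 with slide as a block, 151, 112 and 196 without slide 1, 2 and 3, 201 with tumour number as a block and slide, 11 with array brightness as a covariate, and 0 on each slide alone. With tumour number as a replicate block, 1 of the 8 genes was called (S100a9, adjusted p = 0.037) and 296 features in all (1.45%). Same-numbered arrays had correlations of deviations of −0.281, 0.106, −0.121, 0.364, 0.179 and 0.281 for tumours 1 to 6, and 3 of the 6 (tumours 4, 5 and 6, which share a slide with their partner) correlated best with their own number, so these data do not settle whether the numbers pair the samples. Of 69 other genes on the neutrophil lists, 1 was called lower as reported, 4 with normexp, 2 with slide as a block, 3 with the replicate block, 0 to 2 when 1 array was left out, and 0 with detection on all 12 arrays, with array brightness, without slide 2 or 3 and on each slide alone. Cxcl5, the gene called lower as reported, was not tested with detection on all 12 arrays required, since it fails that filter. The count called higher was 1 as reported, 0 to 1 when 1 array was left out, and 0 with the replicate block (with or without slide), with array brightness, with an intensity trend, without slide 1, 2 or 3 and on each slide alone. Since 0 of all 20370 features were called on each slide alone, the counts of 0 there say nothing particular of these genes. With array brightness as a covariate, which can hardly be separated from group here, uncalled list genes changed sign: Anxa1 to 0.13, C3 to 0.48, Cebpa to −0.36, Lta4h to −0.087, Prtn3 to −0.96 and Trem1 to 0.39. C3 was also at 0.0029 without slide 2 and 0.25 on slide 1, Cxcl1 at 0.045 on slide 3 and Gca at −0.43 on slide 1. From all 12 values in place of deviations from group means, r was 0.63 for S100a8 and S100a9, 0.50 for S100a9 and Ltf, 0.25 for S100a9 and Csf3r and 0.66 for Ltf and Lcn2. Without the 2 arrays farthest from the median r was 0.30 for S100a9 and Ltf and 0.075 for S100a9 and Csf3r, and after quantile normalization it was 0.39 for S100a9 and Csf3r. When 1 array was left out, the groups differed by 915 to 1157 in the 75th percentile and by 1.14 to 1.82 percentage points in spots above background (exact permutation p up to 0.0736). The cause of these changes was not tested. Signals below background limit what can be said of Ngp, Elane, Camp, Mpo, Cxcl5, Prss57 and Serpina3n.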
